A study of Homo sapiens with 4 samples.

Results

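The genes described here are 10 members of the S100 family, namely S100A2, S100A4, S100A6, S100A7, S100A8, S100A9, S100A10, S100A11, S100A14 and S100A16. They were chosen by gene symbol from the 58825 genes of the deposited table, and all 10 were found and passed the filter on low values used for testing. The libraries came from HaCaT cells, an established human keratinocyte line, grown in a medium with 1.2 mM calcium. One group (treatment shlnc-DC, genotype Lnc-DC knockdown) had received lentivirus against the long noncoding RNA lnc-DC, and the other (shNC, control) had received the control lentivirus, with 2 libraries per group. The study asked how silencing lnc-DC alters gene expression in keratinocytes induced to differentiate. The labels call the 2 libraries of a group biological replicates. Whether they came from separate transductions is not given in the sources used here, so their spread may not include that between transductions. Both groups were cells of 1 line on 1 medium, and cells kept at low calcium were not analysed here.

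S100 proteins are small calcium-binding proteins built around a pair of EF hands, and most of them act as dimers. In epidermis several are made in the differentiating layers and during inflammation. Inside the cell they bind annexins, cytoskeletal proteins and transcription factors, and a few are released and act on receptors such as RAGE (AGER) and TLR4 or sequester zinc from microbes. The genes for most S100 proteins lie together in the epidermal differentiation complex of chromosome 1.

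In the GENCODE 29 annotation of GRCh38 all 10 genes were protein-coding genes of chromosome 1, in 2 blocks. S100A10 (chr1:151982915-151994390) and S100A11 (chr1:152032506-152047907) lay within 65.0 kb, on the minus strand. The other 8 lay within 259 kb: S100A9 (chr1:153357854-153361027) on the plus strand, and S100A8 (chr1:153390032-153391188), S100A7 (chr1:153457744-153460701), S100A6 (chr1:153534599-153536244), S100A4 (chr1:153543613-153550136), S100A2 (chr1:153561108-153567890), S100A16 (chr1:153606886-153613145) and S100A14 (chr1:153614255-153616986) on the minus strand. No member shared an exon on its own strand with another gene. On the opposite strand, exons of S100A6 overlapped those of the clone-named gene BX470102.1. The sources used here name no strand setting, so the effect of this overlap on S100A6 is unknown. Of all 50-base windows of the principal S100A7 transcript, 15.6% also occurred in S100A7A, and 2.20% of those of S100A11 occurred in another gene, so the values of these genes depend in part on how reads were divided. For the other 8 members no such window was shared.

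Promoter windows are shown for 5 members. They are the S100A8 and S100A9 pair, whose ratio separated the groups as every ratio computed did, and S100A14, S100A4 and S100A6. S100A14, S100A4 and S100A6 had the largest differences between groups. Each window holds the 250 bases before the gene's start in RefSeq (GRCh38.p14), written 5′ to 3′ on the gene's strand. The windows are chr1:153357604-153357853 (plus strand), chr1:153391074-153391323, chr1:153616326-153616575, chr1:153545807-153546056 and chr1:153535992-153536241 (minus strand). RefSeq listed 3 starts for S100A8, and the window of the middle one is shown. Capitals mark matches to the 4 motifs searched.
S100A9: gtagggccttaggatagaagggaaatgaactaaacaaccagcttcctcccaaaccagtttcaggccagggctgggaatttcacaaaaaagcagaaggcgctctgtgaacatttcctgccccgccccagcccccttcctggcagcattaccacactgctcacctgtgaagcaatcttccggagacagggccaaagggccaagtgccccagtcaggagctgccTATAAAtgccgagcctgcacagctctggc
S100A8: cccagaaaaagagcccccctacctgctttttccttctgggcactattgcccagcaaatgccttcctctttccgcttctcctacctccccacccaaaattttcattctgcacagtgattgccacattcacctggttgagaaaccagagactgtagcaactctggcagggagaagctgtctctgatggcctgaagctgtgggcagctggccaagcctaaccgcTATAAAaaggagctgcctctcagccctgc
S100A14: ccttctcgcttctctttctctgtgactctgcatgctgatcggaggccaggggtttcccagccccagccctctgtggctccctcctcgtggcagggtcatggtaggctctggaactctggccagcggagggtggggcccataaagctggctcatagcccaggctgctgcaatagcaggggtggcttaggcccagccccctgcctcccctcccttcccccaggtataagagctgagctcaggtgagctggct
S100A4: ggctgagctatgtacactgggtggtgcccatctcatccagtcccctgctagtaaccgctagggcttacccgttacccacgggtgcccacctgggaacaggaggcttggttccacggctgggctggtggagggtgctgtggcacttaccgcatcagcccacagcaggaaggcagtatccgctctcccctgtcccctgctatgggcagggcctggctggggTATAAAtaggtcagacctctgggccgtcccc
S100A6: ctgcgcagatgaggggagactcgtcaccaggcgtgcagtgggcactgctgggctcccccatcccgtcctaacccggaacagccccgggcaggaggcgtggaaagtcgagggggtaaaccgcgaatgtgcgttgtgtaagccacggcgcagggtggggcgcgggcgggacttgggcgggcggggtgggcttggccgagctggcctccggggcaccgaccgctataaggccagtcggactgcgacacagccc
The TATA box (TATAAA, gene strand only) was found in 4 of 10 members, S100A4, S100A7, S100A8 and S100A9, against 8.38% of 27305 genes with such a window. It began 29 bases before the start shown in both S100A8 and S100A9, 31 bases before it in S100A4 and 28 in S100A7. The similar letters TATAAG, seen in the windows of S100A14 and S100A6, were not searched. The AP-1 motif (TGANTCA, both strands) was found in S100A2 alone, beginning 52 bases before 1 of its 2 starts, against 8.06% of genes. The C/EBP motif (TTGCNNAA, both strands) was found in S100A11 alone, against 11.03% of genes, and the STAT motif (TTCNNNGAA, both strands) in no member, against 8.09% of genes. The motifs do not overlap one another in these windows, and a match is a description of letters, not a binding site.

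The values are FPKM, fragments scaled by transcript length and by the mapped fragments of the library, so levels can be set side by side between genes. Totals of reads were not part of the table, and whole reads could not be recovered from it, so the depth behind a value is unknown. The number of genes with a nonzero value ranged from 22351 to 22780 per library. The targeted transcript, WFDC21P (ENSG00000261040), stood at 0.09 and 0.29 FPKM in the knockdown libraries, against 2.15 and 2.76 FPKM in the control libraries. Its limma adjusted p was 0.0715. It passed the filter on low values only through the control group, where it is high, so this p is no support. Of 11 keratinocyte markers 10 reached 1 FPKM, with SFN and KRT5 highest, but KRT14 did not exceed 0.35 FPKM. Whether the low KRT14 comes from the cells or from how reads were divided between genes was not tested. The summed keratinocyte markers ranged from 479 to 504 FPKM in knockdown and from 798 to 828 FPKM in control libraries. Most of that sum was SFN (means of 170 FPKM in knockdown and 305 FPKM in control cells) and KRT5 (139.9 FPKM in knockdown and 287 FPKM in control cells). KRT15 was also lower in both knockdown libraries (means of 8.98 FPKM in knockdown and 31.7 FPKM in control cells, limma adjusted p = 0.0362). ITGA6, DSG3 and the low KRT14 were likewise lower in both. COL17A1 was higher in both knockdown libraries (means of 19.2 FPKM in knockdown and 15.9 FPKM in control cells), and TP63, ITGB4, LAMB3 and PERP overlapped between groups. Of 8 differentiation markers KRT1, LOR and DSG1 were listed at 0 in all 4 libraries. KRT10 lay between 11.24 and 12.78 FPKM, and IVL (involucrin) stood at 3.84 and 4.23 FPKM in knockdown, against 8.48 and 9.99 FPKM in control libraries (log2 difference -1.02, limma adjusted p = 0.0723). The part of these markers in the S100 results was not tested. Transcripts from the mitochondrial genome took 28.1% and 26.8% of the FPKM sum in knockdown and 41.2% and 41.9% in control libraries.

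Most of the 10 genes lay lower in the knockdown libraries. S100A14, S100A4, S100A6, S100A10, S100A16 and S100A11 were lower in both knockdown libraries than in both controls, with ratios of the mean FPKM in knockdown over control between 0.501 and 0.780. S100A7, S100A8 and S100A2 had means slightly lower in knockdown and S100A9 a mean slightly higher, and in these 4 the groups overlapped. None of the 10 passed the threshold of 0.05 after adjustment over all 12411 tested genes, where limma called 31 genes, or 0.250%. The smallest adjusted p among the members was 0.0898.

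**Figure D1:**
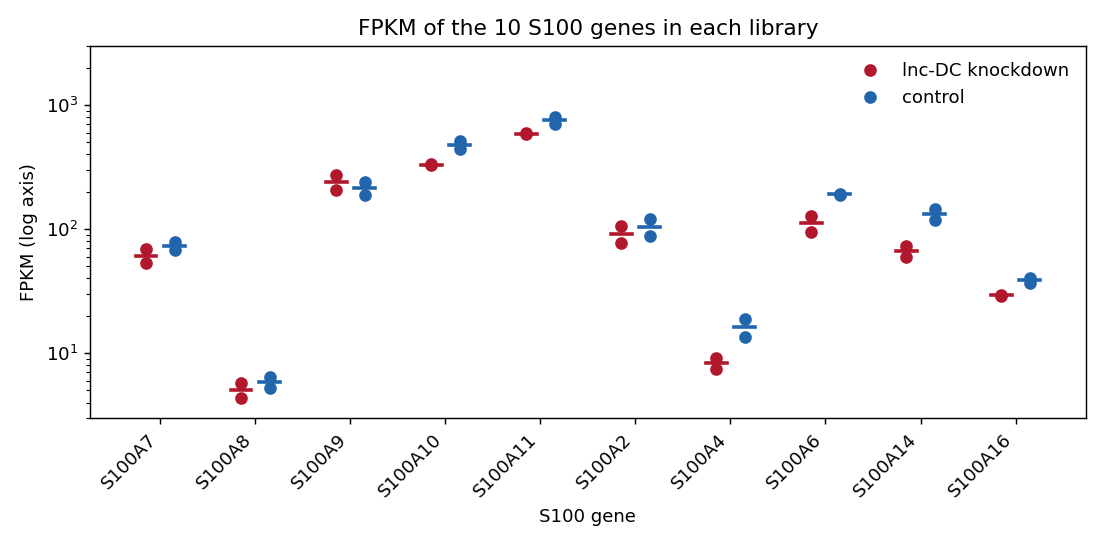
FPKM of the 10 S100 genes on a log axis, with 1 point per library, lnc-DC knockdown (left of each pair) and control (right), and a bar at each group's mean (n = 2 per group). The levels run from S100A8 (5.07 FPKM on average in knockdown and 5.83 in control cells) to S100A11 (589 and 755 FPKM), and the groups separate for S100A10, S100A11, S100A4, S100A6, S100A14 and S100A16.

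Levels of the members spanned a wide range within each group. The mean of the highest, S100A11, was 116 times that of the lowest, S100A8, in knockdown and 130 times in control cells. In the knockdown libraries the order from high to low was S100A11, S100A10, S100A9, S100A6, S100A2, S100A14, S100A7, S100A16, S100A4 and S100A8. The libraries of S100A6 and S100A2 overlapped in that order, as did those of S100A14 and S100A7. In the control libraries the order differed only in that S100A14 stood above S100A2, and there S100A9 overlapped S100A6 and S100A14 overlapped S100A2. By mean FPKM over all libraries S100A11 ranked 31, S100A10 ranked 53, S100A9 ranked 110 and S100A6 ranked 184 among the 12411 tested genes, while S100A8 ranked 6186.

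The members summed to 1462 and 1604 FPKM in the knockdown libraries, against 1867 and 2147 FPKM in the controls. S100A10 and S100A11 together made up 63.4% and 56.8% of that sum in knockdown and 61.7% and 61.0% in control libraries. S100A9 made up 14.2% and 17.1% in knockdown and 10.1% and 11.1% in control libraries, and these shares did not overlap. The FPKM of S100A9 itself did overlap between groups, and the sum it is divided by was lower in knockdown. S100A14 made up 4.10% and 4.54% in knockdown and 6.35% and 6.82% in control libraries, without overlap in share or in FPKM. Relative to the summed FPKM of nuclear genes alone, the members came to 0.749% and 0.797% in knockdown and to 0.993% and 1.09% in control libraries. Relative to the FPKM sum of all genes, they came to 0.539% and 0.583% in knockdown and to 0.584% and 0.634% in control libraries. By that share the groups nearly touched. In bulk RNA of this kind, fewer cells that express a gene and less RNA per cell cannot be told apart.

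The groups overlapped for each of S100A9, S100A8 and S100A7. S100A8 and S100A9 code for the subunits of calprotectin, an alarmin that sequesters zinc and manganese and signals through TLR4 and RAGE. S100A9 stood at 207.86 and 274.43 FPKM in the knockdown libraries, against 189.12 and 238.39 FPKM in the controls, so the 2 groups overlapped. Its fitted difference in log2(FPKM + 1) was 0.17 (SE 0.203, 95% confidence interval -0.36 to 0.70, limma adjusted p = 0.647), and without knockdown replicate 2 it turned to -0.03. S100A8 stood at 4.36 and 5.78 FPKM in the knockdown libraries, against 5.21 and 6.44 FPKM in the controls, again overlapping. Its difference was -0.17 (SE 0.176, interval -0.63 to 0.29, adjusted p = 0.589), and it was -0.0037 without knockdown replicate 1. S100A7 codes for psoriasin, an antimicrobial protein of keratinocytes, and stood at 53.05 and 68.61 FPKM in knockdown, against 68.43 and 78.46 FPKM in control libraries. The knockdown value of replicate 2 lay just above the lower control value, and the difference was -0.28 (SE 0.168, interval -0.72 to 0.17, adjusted p = 0.391). Without knockdown replicate 1 it was -0.09.

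The transcripts of the calprotectin subunits were far from equal. S100A9 exceeded S100A8 47.7-fold and 47.5-fold in the knockdown libraries, against 36.3-fold and 37.0-fold in the control libraries. The ratio was 47.6 ± 0.138 in knockdown and 36.7 ± 0.507 in control cells (mean ± SD, n = 2 per group), 1.3 times as high in knockdown, with a gap between groups larger than the spread within either. A ratio within a library does not depend on how the library was scaled. In these libraries the 2 genes did not differ between groups by the same factor, but the ratio does not show which of them did. Whether this holds beyond them is not known: S100A8 is low, depth is unknown and the ratio was picked after its values were seen. The smallest p that an exact permutation test can reach with 2 libraries per group is 0.333, and the ratio was not tested. Every ratio within a library that was computed here separated the groups, so separation does not mark this pair out. That of S100A11 to S100A10 was 1.78 and 1.79 in knockdown, against 1.61 and 1.56 in control libraries. The share of all gene pairs that separate was not computed.

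The annexin partners were the most abundant members and were lower in knockdown. S100A10, also called p11, binds annexin A2 and has lost the ability to bind calcium. It stood at 334.12 and 326.00 FPKM in the knockdown libraries, against 441.88 and 510.90 FPKM in the controls, with no overlap. Its mean ratio was 0.693, and its log2 difference -0.52 (SE 0.138, interval -0.89 to -0.16, limma adjusted p = 0.134). S100A11, a partner of annexin A1 that acts on keratinocyte growth, stood at 593.39 and 584.68 FPKM in knockdown, against 710.61 and 799.06 FPKM in control libraries. The 2 knockdown values lay close together and below both controls, with a mean ratio of 0.780 and a log2 difference of -0.35 (SE 0.140, interval -0.72 to 0.01, adjusted p = 0.231). Under quantile normalization, which equalises the top of the distribution, the difference for S100A11 was -0.17.

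The annexins themselves did not separate the groups. ANXA2 stood at 166.27 and 168.03 FPKM in knockdown, against 138.09 and 179.40 FPKM in control libraries, and ANXA1 at 151.72 and 165.39 FPKM, against 148.71 and 155.09 FPKM. The ratio of S100A10 to ANXA2 was 2.01 and 1.94 in the knockdown libraries, against 3.20 and 2.85 in the controls. The ratio of S100A11 to ANXA1 was 3.91 and 3.54 in the knockdown libraries, against 4.78 and 5.15 in the controls. Both ratios separated the groups without a test.

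**Figure D2:**
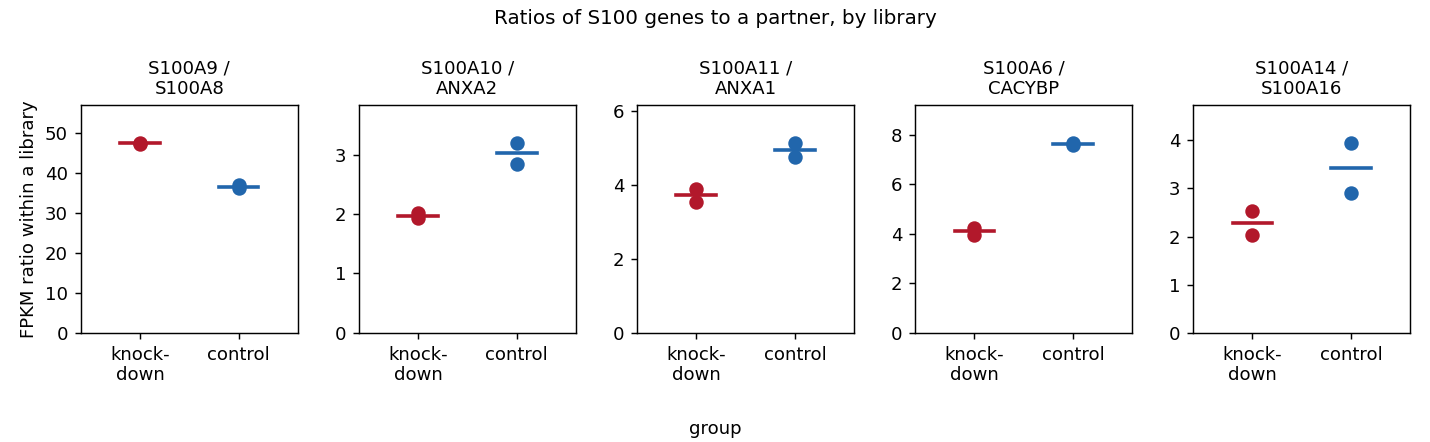
Ratio of FPKM between an S100 gene and a partner within each library, on linear axes from 0, for knockdown (left) and control (right) libraries, with a bar at each group's mean (n = 2 per group). S100A9 over S100A8 is higher in knockdown (47.7 and 47.5, against 36.3 and 37.0), and the other 4 ratios are lower in both knockdown libraries than in both controls.

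The largest differences were those of S100A14, S100A4 and S100A6. S100A14 is an epithelial member with an altered EF hand. It stood at 59.93 and 72.77 FPKM in the knockdown libraries, against 118.56 and 146.49 FPKM in the controls, with no overlap. The means were 66.4 ± 9.08 FPKM in knockdown and 132.5 ± 19.7 FPKM in control cells (SD, n = 2 per group), a ratio of 0.501, the lowest among the members, with a log2 difference of -0.99 (SE 0.168, interval -1.43 to -0.54, limma adjusted p = 0.0898). Of the tested genes 1.33% had a lower log2 difference. S100A16, its neighbour on the chromosome, stood at 29.55 and 28.87 FPKM in knockdown, against 40.73 and 37.11 FPKM in control libraries. Its groups did not overlap either, and its log2 difference was -0.40 (SE 0.108, interval -0.68 to -0.12, adjusted p = 0.139). The ratio of S100A14 to S100A16 was 2.03 and 2.52 in knockdown, against 2.91 and 3.95 in control libraries, so S100A14 was lower by the larger factor.

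S100A4, which binds non-muscle myosin and is known from migrating and mesenchymal cells, stood at 7.51 and 9.15 FPKM in the knockdown libraries, against 13.39 and 18.88 FPKM in the controls. The groups did not overlap. Its mean ratio was 0.516 and its log2 difference -0.86 (SE 0.200, interval -1.39 to -0.34, limma adjusted p = 0.116). Markers of fibroblasts, which also express S100A4, were near 0: none of 6 reached 1 FPKM, the summed list lay between 0.48 and 0.59 FPKM in knockdown and between 0.60 and 0.68 FPKM in control libraries, and COL1A2 was listed at 0.

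S100A6, or calcyclin, binds the ubiquitin ligase adaptor CACYBP and annexins. It stood at 95.06 and 127.93 FPKM in the knockdown libraries, against 190.43 and 190.07 FPKM in the controls, with a mean ratio of 0.586. The control libraries were nearly equal and both lay above the knockdown values, which differed more from each other. The log2 difference was -0.78 (SE 0.175, interval -1.24 to -0.32, limma adjusted p = 0.113). CACYBP stood at 24.11 and 30.12 FPKM in knockdown, against 25.05 and 24.76 FPKM in control libraries, and the ratio of S100A6 to it was 3.94 and 4.25, against 7.60 and 7.68.

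S100A2, a target of p63 in keratinocytes, showed a wide spread within both groups. It stood at 77.12 and 106.19 FPKM in knockdown, against 88.28 and 121.18 FPKM in control libraries. Replicate 2 was the higher library in each group, and the groups overlapped. The log2 difference was -0.19 (SE 0.234, interval -0.80 to 0.42, limma adjusted p = 0.655) and turned to 0.04 without knockdown replicate 1 or without control replicate 2. TP63 stood at 7.55 and 7.71 FPKM in knockdown, against 9.35 and 7.52 FPKM in control libraries.

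**Figure D3:**
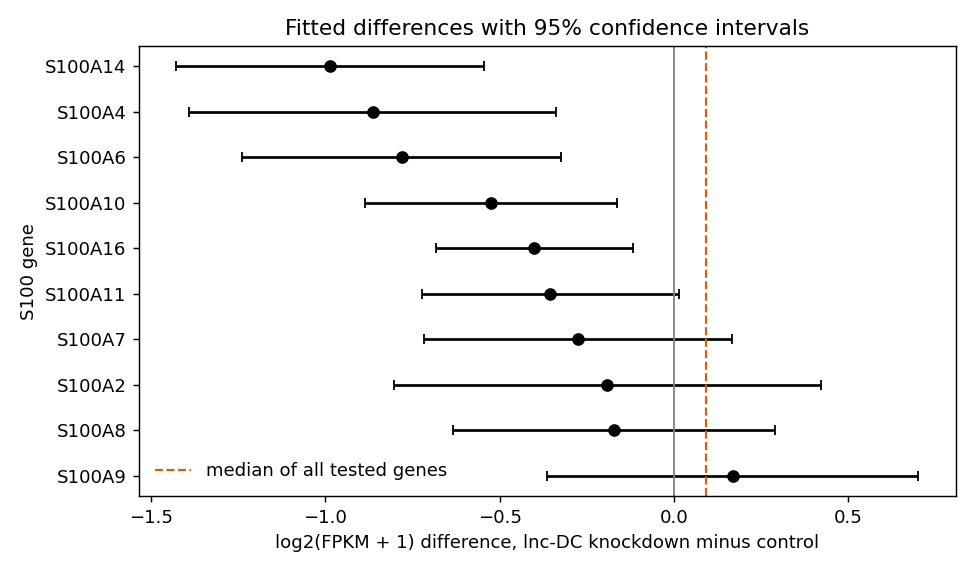
Difference in log2(FPKM + 1), lnc-DC knockdown minus control, for each member (points) with its 95% confidence interval from limma (bars, n = 2 per group), beside the median of all tested genes (dashed line, 0.09). The intervals of S100A14, S100A4, S100A6, S100A10 and S100A16 lie below 0, those of the other 5 include 0, and only S100A9 has a point above 0.

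Counted together, 9 of 10 members had a log2 difference below 0, against 38.6% of all tested genes. The median difference was -0.38 over the members and 0.09 over all tested genes. Both knockdown values lay below both control values for 6 of 10 members, against 19.2% of tested genes, and above them for 0 of 10, against 35.6%. Before adjustment, 5 of 10 members had a p under 0.05 and were lower, against 8.00% of tested genes, and 0 of 10 were higher, against 14.8%. The members share 4 libraries and are not independent of each other. They were also chosen with earlier results of these data known, so these shares are a description and not a test. With mitochondrially encoded genes left out and the rest rescaled, 9 of 10 members were again below 0 and their median was -0.42, where the median of all genes was 0.06. Replicate 2 had the higher value for 7 members in knockdown and 8 in control cells, against 40.8% and 40.7% of tested genes, and the part of this in the results was not tested.

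Of 11 other S100 genes, 4 were tested and none passed the adjusted threshold. S100A3 and S100P were lower and S100A12 higher in both knockdown libraries. S100A3, a gene of hair cuticle that lies within the span of S100A4 on the same strand without sharing an exon, stood at 2.77 and 2.29 FPKM in knockdown, against 6.17 and 4.99 FPKM in control libraries (log2 difference -0.90, limma adjusted p = 0.0916). S100P, which lies on chromosome 4, stood at 1.14 and 2.65 FPKM in knockdown, against 4.17 and 4.49 FPKM in control libraries (-0.93, adjusted p = 0.158). The difference for S100P was -0.55 without knockdown replicate 1 and -1.32 without knockdown replicate 2, and adjusted p stayed above the threshold in both. S100A12, a myeloid alarmin, was listed at 0.97 and 1.11 FPKM in knockdown, against 0 and 0.38 FPKM in control libraries. It passed the filter only through the knockdown group, so no test of it is given. S100A13 overlapped between groups, at 6.12 and 10.01 FPKM in knockdown, against 8.55 and 10.27 FPKM in control libraries. Of the 50-base windows of its principal transcript 60.9% also occurred in a clone-named gene with which it shares exons on the same strand, so its value depends strongly on how reads were divided. Of the 7 that were not tested, S100B, S100G, S100Z and S100A7L2 were listed at 0 in all libraries, and S100A1, S100A5 and S100A7A did not exceed 1.03 FPKM. Markers of myeloid cells, which also make S100A8 and S100A9, were low: 2 of 8 reached 1 FPKM (CD14 and S100A12), PTPRC was listed at 0, and the list summed to 2.03 and 2.44 FPKM in knockdown and 3.16 and 2.29 FPKM in control libraries.

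The fused-type S100 genes of the same complex, large structural proteins of the cornified layer with an S100 domain at one end, were hardly expressed. Only TCHH (trichohyalin) of 7 was tested, at 0.76 and 0.64 FPKM in knockdown, against 1.26 and 1.07 FPKM in control libraries. The highest value among the other 6 was 0.64 FPKM for FLG, and CRNN was listed at 0.

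Among 12 protein partners of S100 proteins 9 were tested and 0 passed the adjusted threshold. At an unadjusted p under 0.05, 1 of 9 was lower and 1 of 9 higher, near the 8.00% and 14.8% of all tested genes. PLAT, the tissue plasminogen activator, whose activation of plasminogen the complex of S100A10 and annexin A2 promotes, stood at 16.94 and 16.10 FPKM in knockdown, against 36.21 and 34.56 FPKM in control libraries. Its log2 difference was -1.05 (SE 0.103, limma adjusted p = 0.0550), and it passed with the stricter filter (0.0424) and under quantile normalization (0.0417), within a range up to 0.255 over the alternatives. MYH9, the non-muscle myosin heavy chain that S100A4 binds, stood at 78.81 and 68.73 FPKM in knockdown, against 56.96 and 45.35 FPKM in control libraries (0.53, adjusted p = 0.158). AHNAK, a scaffold bound by the complex of S100A10 and annexin A2, differed mostly between libraries of 1 group, at 80.98 and 2.45 FPKM in knockdown, against 104.96 and 62.62 FPKM in control libraries.

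Of 8 receptors, 7 were found by symbol, 5 were tested and 0 passed the adjusted threshold. NPTN (neuroplastin), a receptor for S100A8, stood at 39.43 and 36.08 FPKM in knockdown, against 49.03 and 48.07 FPKM in control libraries (log2 difference -0.36, limma adjusted p = 0.158). BSG, a receptor for S100A9, stood at 122.25 and 100.64 FPKM, against 104.46 and 99.20 FPKM, and AGER at 1.85 and 0.72 FPKM, against 2.04 and 1.5 FPKM. TLR4 did not pass the filter and stood at 0.45 and 0.42 FPKM in knockdown, against 0.19 and 0.20 FPKM in control libraries.

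Of 16 transcription factors with reported links to S100 genes, 15 were tested and 0 passed the adjusted threshold. At an unadjusted p under 0.05, 5 of 15 were lower, against 8.00% of tested genes, and 2 of 15 higher, against 14.8%. The lower ones were ELF3, IRF1, JUNB, KLF4 and CEBPA, and the higher ones NFKB1 and FOSL1. CEBPA passed the filter on low values only through the control group, where it is high, so its count among the lower ones is no support. ELF3, an epithelial ETS factor, stood at 22.68 and 23.91 FPKM in knockdown, against 51.12 and 53.35 FPKM in control libraries (log2 difference -1.13, limma adjusted p = 0.0533), and it passed under the stricter filter (0.0391), quantile normalization (0.0376) and rescaling to nuclear genes (0.0413), within a range up to 0.255. IRF1, an interferon response factor, stood at 13.07 and 11.62 FPKM, against 20.98 and 21.62 FPKM, and JUNB, an AP-1 subunit, at 31.13 and 26.95 FPKM, against 43.75 and 42.72 FPKM. In these 3 factors the knockdown values lay together below the controls. KLF4, a factor of barrier formation in epidermis, stood at 3.77 and 3.64 FPKM, against 5.62 and 5.26 FPKM, and CEBPA at 0.99 and 0.71 FPKM, against 1.97 and 1.42 FPKM. The other two had both knockdown values above both controls. NFKB1, an NF-kappaB subunit, stood at 17.84 and 18.82 FPKM, against 13.68 and 13.25 FPKM, and FOSL1, another AP-1 subunit, at 35.84 and 25.47 FPKM, against 9.14 and 19.19 FPKM.

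The genes whose pattern over the 4 libraries lay nearest to that of S100A14, by Euclidean distance of log2(FPKM + 1) values centred on their mean, were CETN2 (distance 0.0546), LAMTOR5 (0.0704) and MACROD1 (0.0950). CETN2 stood at 15.36 and 18.57 FPKM in knockdown, against 29.66 and 37.08 FPKM in control libraries. A likeness over 4 libraries is a description only.

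**Figure D4:**
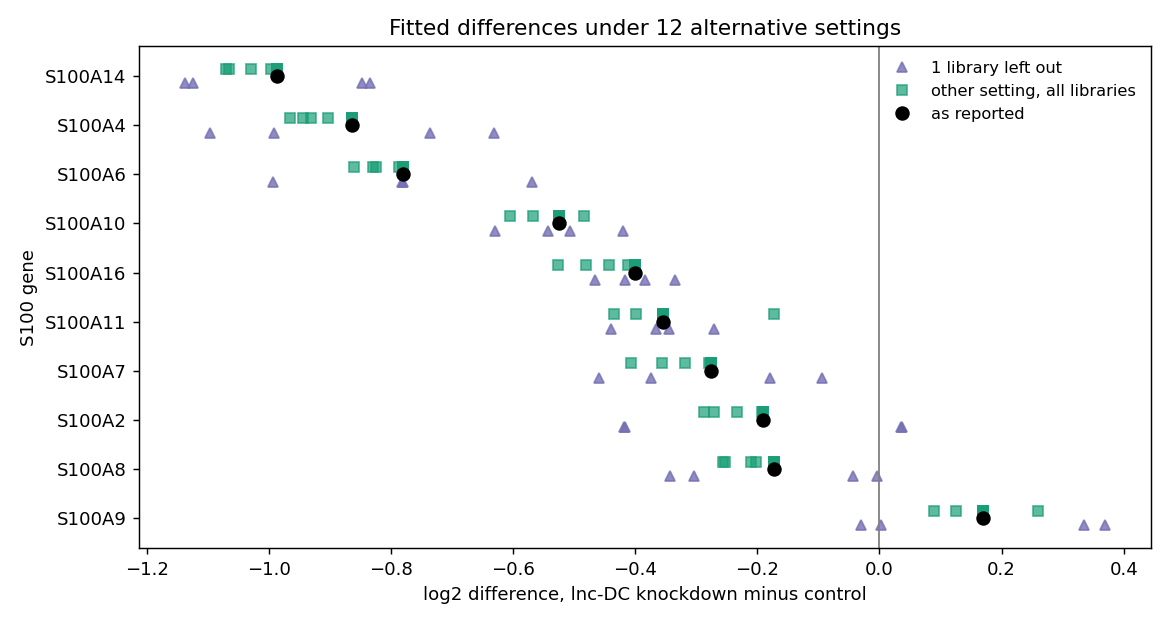
Log2 difference of each member, knockdown minus control, as reported (black circles), under 8 other settings with all libraries (green squares) and with 1 of the 4 libraries left out (purple triangles). S100A14, S100A4, S100A6, S100A10, S100A16, S100A11, S100A7 and S100A8 stay below 0 in all 12 alternatives, whereas S100A2 and S100A9 cross 0 when a library is left out. Changing the filter, robust fitting and the replicate block cannot move a difference, so their squares lie at the reported value.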

How the data were processed

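RNA was sequenced from 2 lnc-DC knockdown and 2 control libraries. Per the labels' protocols, mRNA was selected with oligo(dT) beads from 5 µg of total RNA, the second strand was marked with dUTP, and paired reads of 150 bases were made. The tools named are HISAT2 2.0.4, StringTie 1.3.4d, cutadapt 1.9, edgeR and DESeq2, per the submitters' processing notes, which assign them no step. The sources used here name no genome build, strand setting or treatment of multiply mapped reads. The authors deposited FPKM with 2 decimals per gene and library, with a ratio (fold) column of the group means and its log2. For all 10 members the authors' deposited log2 ratio lay within 0.02 of that computed from the FPKM. Gene IDs were matched to GENCODE 29 (58552 of 58825) for positions and transcripts.

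Values were transformed as log2(FPKM + 1). All 12411 genes averaging 1 FPKM or more in either group were fitted together in R 4.3.3 by limma 3.58.1 (with a mean-variance trend, group as the only term, two-sided, Benjamini-Hochberg adjustment over all tested genes, threshold 0.05), and the members' rows were read from that fit. Differences on this scale understate the change of low genes. The fit was tested on simulated data. Alternatives were another pseudocount (0.1), no filter or a filter of 5 FPKM, median centring, quantile normalization, rescaling to nuclear genes, robust fitting, a replicate block and leaving out each library. Low values of genes with 1 transcript came within 0.1 of a whole read in 30.6% to 33.2% of cases at the best depth, against a median of 18.6% to 18.7% over the depths tested, so read counts could not be recovered and no count test was run. Every FPKM column belonged to a sample of the series.

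The members and lists were chosen with earlier results of these data known. The text names all members, WFDC21P, the other S100 genes, and genes of the partner lists with an unadjusted p under 0.05, plus the 3 genes nearest in pattern to the member with the largest difference. ANXA1, ANXA2, CACYBP, TP63, AHNAK, BSG, AGER, TLR4, the fused-type genes, the ratios within a library and the promoters shown were picked after their values were seen. MCAM was not found by its symbol and was not used.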

Additional observations from a re-analysis of the deposited data

How the results depend on the processing

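None of the 10 members passed the threshold under any of the 12 alternatives, where the lowest adjusted p was 0.0563 (S100A14, quantile normalization). S100A14, S100A4, S100A6, S100A10, S100A16, S100A11, S100A7 and S100A8 kept their direction in all 12, although with 1 library left out S100A8 ranged from -0.34 to -0.0037 and S100A7 from -0.46 to -0.09. Changing the filter, robust fitting and the replicate block leave a member's difference unchanged by design. Only the remaining alternatives could have turned a direction. With 1 library left out, the log2 difference ranged from -0.42 to 0.0375 for S100A2 (above 0 without knockdown replicate 1, at 0.0375, or control replicate 2, at 0.0356), from -0.0306 to 0.37 for S100A9 (below 0 without knockdown replicate 2) and from -0.54 to 0.0858 for S100A13 (above 0 without knockdown replicate 1). The count of genes called over the whole table, 31 (14 higher and 17 lower), was split as 13 and 24 under median centring and as 17 and 40 under quantile normalization. It became 58 with the stricter filter and 57 under quantile normalization, and 0 with no filter (3876 with an unadjusted p under 0.05). It was 0 to 0 with any 1 library left out (1797 to 2251 with an unadjusted p under 0.05), where fewer samples enter the fit. The other causes were not tested. With the replicate block 0 genes were called (3791 of 12411 with an unadjusted p under 0.05, 1296 lower and 2495 higher). Of the 10 members, 7 had an unadjusted p under 0.05 and were lower, and 0 were higher. The labels do not say that a number marks a shared batch, and the deviations of same-numbered libraries correlated at 0.124 across genes. Depth is unknown, so the precision of low values such as S100A8 and S100A12 cannot be given.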
